A study of Mus musculus with 2 samples.

Results

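*Klk6*/*Hapln2* cells were 385 oligodendrocytes of the mouse ventral parafacial region, among 12395 cells that passed the quality filters. They were selected on their own counts of unique molecular identifiers (UMIs), the tags that mark single captured RNA molecules. A cell was kept if it had at least 800 genes, at most 50 hemoglobin UMIs and at most 20% mitochondrial UMIs. It was then a member if *Mog* and *Mag* together gave at least 5 UMIs, and if *Klk6* and *Hapln2* together gave at least 3 UMIs and more than *Opalin*, *Grb14* and *Tmod1* together. Cells with more than 2 UMIs of the microglial and endothelial genes *C1qa*, *C1qb*, *Cldn5* and *Flt1*, or with any UMI of the neuronal transporter genes *Slc32a1* and *Slc17a6*, were left out. The rule found 85 members in the untreated library and 300 in the 4OH-tamoxifen library.

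The ventral parafacial region is a part of the brainstem that contributes to the control of breathing, and the study sequenced single cells from it to describe its neurons. Both libraries came from wild-type C57BL6/J mice at 10 days of age, and each was made from 8 pooled animals, 4 male and 4 female. The mice of one library were untreated, and those of the other had received 4OH-tamoxifen, a ligand used to activate inducible Cre recombinases, at 0.2 mg per day for 3 days. The labels put the libraries in batches 1 and 2. Each condition thus has a single library, so conditions were not tested against each other, and treatment, animals, batch and preparation cannot be told apart.

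Oligodendrocytes wrap axons of the central nervous system in myelin. They arise from precursors, pass through a newly formed stage and a myelin-forming stage, and end as mature cells that keep the sheath and supply the axon. In other parts of the mouse nervous system, *Klk6* and *Hapln2* are known from mature oligodendrocytes, most of all in the hindbrain and spinal cord, whereas *Opalin* marks myelin-forming and another set of mature cells. *Klk6* encodes a secreted serine protease, and *Hapln2* a link protein that holds the hyaluronan matrix of the node of Ranvier together.

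For comparison, *Opalin* cells were defined as the mirror image of the rule, with the same filters and exclusions, at least 5 *Mog* and *Mag* UMIs, and at least 3 UMIs of *Opalin*, *Grb14* and *Tmod1* that exceeded *Klk6* and *Hapln2*. There were 266 untreated and 861 4OH-tamoxifen *Opalin* cells, and 187 and 576 further *Mog* and *Mag* cells met neither rule. Levels are UMIs summed over the cells of a group per 1000000 UMIs (CPM), and a ratio is the level in *Klk6*/*Hapln2* cells over that in *Opalin* cells of the same library. All intervals are 95% intervals for counting error alone. Since the cells were chosen by their counts and cells of 1 library are not replicates, the ratios describe these cells and carry no test.

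*Klk6*/*Hapln2* cells made up 2.54% of filtered untreated cells (95% Clopper-Pearson interval 2.04 to 3.13) and 3.32% of filtered 4OH-tamoxifen cells (2.96 to 3.71). Among the 538 and 1737 *Mog* and *Mag* cells that passed the exclusions, they were 15.8% (12.8 to 19.2) and 17.3% (15.5 to 19.1). With these filters the intervals of the 2 libraries overlapped on both denominators. The shares of filtered cells moved with the filters, to 1.89% and 3.90% with at most 10% mitochondrial UMIs and to 2.96% and 5.59% with at least 1200 genes. They were 1.80% and 2.72% after thinning each cell to 2000 UMIs and 1.47% and 2.61% with no UMI of *C1qa*, *C1qb*, *Cldn5* or *Flt1*. The ratio of the 2 shares was larger under each of these. It was smaller with at least 6 *Klk6* and *Hapln2* UMIs, at 2.27% and 2.45%. The same held with at least 500 genes, at 2.54% and 3.14%, and without predicted doublets, at 2.546% and 3.225%. The exclusion of other cell types removed 6 and 23 cells that met the rest of the rule. The libraries had 40 barcodes in common, and no member of one was a member of the other. Members had a median of 10257 UMIs in the untreated library and 6097 in the 4OH-tamoxifen library, and *Opalin* cells had 12160 and 7484. The median mitochondrial share was higher in members, at 10.4% against 6.57% in *Opalin* cells of the untreated library and 7.34% against 5.33% with 4OH-tamoxifen. With at most 10% mitochondrial UMIs, 40 untreated members were left and 3 of 62 named genes called lost their 2-fold call, *Trf*, *Cd82* and *Gjb1*.

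The start regions of 4 genes are shown: *Klk6*, *Hapln2* and *Opalin*, which the rule used to set the groups apart, and *Apod*, a marker that it did not use. The sequences are those of RefSeq for GRCm38.p6, up to 250 bases before the first listed start, ended where the GENCODE gene begins. Capitals mark matches on either strand to ACAAAG (a core that Sox factors bind), to CTGGCAC or CTGGTAC (a Myrf-type core) and to CAGCTG (an E-box).
*Klk6*, chr7:43824294-43824498, plus strand: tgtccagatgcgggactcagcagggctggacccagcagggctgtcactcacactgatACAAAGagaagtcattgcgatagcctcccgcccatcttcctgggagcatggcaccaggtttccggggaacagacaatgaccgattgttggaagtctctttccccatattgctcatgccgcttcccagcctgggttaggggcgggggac
*Hapln2*, chr3:88027584-88027761, minus strand: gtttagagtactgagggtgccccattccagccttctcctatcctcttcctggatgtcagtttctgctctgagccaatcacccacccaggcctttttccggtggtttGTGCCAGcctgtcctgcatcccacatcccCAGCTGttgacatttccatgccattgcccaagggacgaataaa
*Apod*, chr16:31314809-31315058, minus strand: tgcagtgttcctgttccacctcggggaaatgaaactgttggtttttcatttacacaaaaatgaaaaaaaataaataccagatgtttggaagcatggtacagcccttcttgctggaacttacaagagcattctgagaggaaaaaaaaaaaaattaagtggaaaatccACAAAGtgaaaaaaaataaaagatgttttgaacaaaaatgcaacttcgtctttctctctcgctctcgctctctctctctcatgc
*Opalin*, chr19:41077114-41077363, minus strand: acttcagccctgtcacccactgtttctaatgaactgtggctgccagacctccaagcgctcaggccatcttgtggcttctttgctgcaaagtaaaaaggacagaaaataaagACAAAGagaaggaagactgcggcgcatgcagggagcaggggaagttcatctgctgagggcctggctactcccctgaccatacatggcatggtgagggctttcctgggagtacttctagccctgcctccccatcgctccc
The ACAAAG core lay 193 bases before the RefSeq start of *Klk6*, 84 before that of *Apod* and 139 before that of *Opalin*, so genes on both sides of the comparison had it. The other start that RefSeq lists for *Klk6*, not shown, had none of the cores before it, and neither did *Grb14*. *Hapln2* had the Myrf-type core 144 bases and the E-box 115 bases before its start. Of 27025 mouse windows of 250 bases before a start, which is longer than the stretches shown for *Klk6* and *Hapln2*, 16.5% held ACAAAG, 5.87% the Myrf-type core and 12.8% the E-box. The matches are letters in the sequence, and binding was not measured.

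The genes of the rule separated the groups by construction, and their levels are given as a description. *Klk6* stood at 542 CPM in untreated members and 491 CPM with 4OH-tamoxifen, against 27.4 and 38.3 CPM in *Opalin* cells. *Hapln2* stood at 1083 and 887 CPM against 146 and 151 CPM. Both genes were close to absent from microglia, with *Klk6* at 1.26 and 2.25 CPM and *Hapln2* at 5.04 and 4.50 CPM, which gives the background in cells that should lack them. *Opalin*, which encodes a membrane protein of myelin, stood at 79.1 and 23.5 CPM in members against 932 and 533 CPM in *Opalin* cells. *Grb14*, an adaptor of insulin receptor signalling, was at 386 and 406 CPM against 1325 and 1486 CPM, so members kept a measurable level of it, well above the 40.3 and 69.8 CPM of microglia.

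The marker genes lie on GRCm38 at chr7:43824499-43832030 (*Klk6*), chr3:88021750-88027583 (*Hapln2*), chr16:31296192-31314808 (*Apod*), chr9:103204001-103230444 (*Trf*) and chr17:37010743-37023398 (*Mog*). The general oligodendrocyte genes of the rule, *Mog* and *Mag*, each had at least 1 UMI in all members. *Mog*, a myelin surface glycoprotein, stood at 3594 CPM in untreated members and 3819 CPM in untreated *Opalin* cells, and at 2467 and 2685 CPM with 4OH-tamoxifen. *Mag*, the myelin-associated glycoprotein of the inner sheath, was lower in members, at 2967 against 5009 CPM and 2506 against 4576 CPM. Among members, 74 of 85 untreated and 258 of 300 4OH-tamoxifen cells had both *Klk6* and *Hapln2*, 11 and 39 had *Hapln2* alone, and 0 and 3 had *Klk6* alone. The median untreated member had 3 *Klk6* UMIs (0 to 46) and 11 *Hapln2* UMIs (2 to 25), and the median 4OH-tamoxifen member 3 (0 to 15) and 5 (0 to 15).

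**Figure D1:**
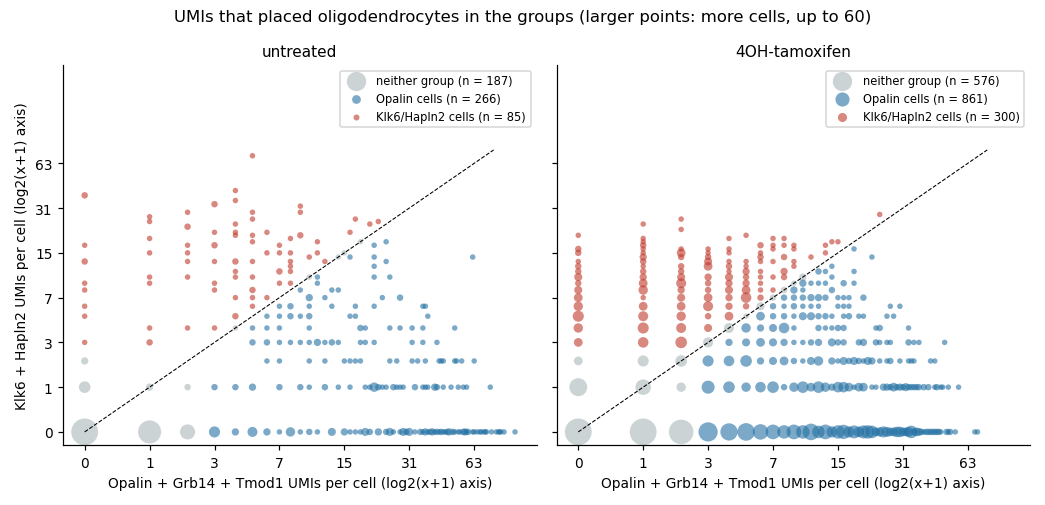
UMIs of *Opalin*, *Grb14* and *Tmod1* (x axis) against UMIs of *Klk6* and *Hapln2* (y axis) per cell in each library, both on log2(x+1) axes, with point area growing with the number of cells up to 60. The 85 untreated and 300 4OH-tamoxifen members lie above the dashed line of equality, and cells fill the space on both sides of it.

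As the plot of rule UMIs shows, the groups were not separated by a gap. Among *Mog* and *Mag* cells with at least 6 UMIs of the 5 deciding genes, 328 untreated cells and 1030 with 4OH-tamoxifen, the share of these UMIs from *Klk6* and *Hapln2* was under 10% in 48.5% and 48.4% of cells. Each further bin of 10 percentage points held 4.27 to 9.15% of untreated and 3.79 to 8.25% of 4OH-tamoxifen cells. The 7 untreated and 24 4OH-tamoxifen members whose *Klk6* and *Hapln2* UMIs led by 1 had *Apod* at 5275 (4734 to 5860) and 2534 CPM (2272 to 2817), and the 5 and 27 cells with a tie, just outside the rule, at 2556 (2212 to 2937) and 2299 CPM (2083 to 2531). At the other edge, the 3 and 23 members with exactly 3 *Klk6* and *Hapln2* UMIs had *Apod* at 4384 (3070 to 6069) and 2240 CPM (1967 to 2540), and the 3 and 14 cells with 2 that also exceeded their *Opalin*, *Grb14* and *Tmod1* UMIs at 695 (318 to 1319) and 2955 CPM (2521 to 3442). Only 2 members, both with 4OH-tamoxifen, had the minimum of 5 *Mog* and *Mag* UMIs, and their *Apod* level was 1112 CPM (361 to 2594), against 759 CPM (91.9 to 2742) in the 1 cell just outside with 4.

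The markers that the rule did not use, *Apod* and *Trf*, were both higher in members in both libraries. *Apod*, a lipid-binding lipocalin, stood at 5954 CPM (5793 to 6119) in untreated members and 3362 CPM (3282 to 3445) with 4OH-tamoxifen, against 1618 and 875 CPM in *Opalin* cells. The ratios were 3.68 (3.54 to 3.83) and 3.84 (3.71 to 3.98). *Trf* encodes transferrin, the iron carrier that oligodendrocytes make in the brain. It stood at 6056 CPM (5894 to 6222) and 4261 CPM (4170 to 4353) in members against 2412 and 1596 CPM, with ratios of 2.51 (2.42 to 2.60) and 2.67 (2.59 to 2.75). With at most 10% mitochondrial UMIs the untreated *Trf* ratio was 1.99. Every member had at least 1 UMI of each gene. Most *Opalin* cells did as well, 234 of 266 and 719 of 861 for *Apod* and 264 and 836 for *Trf*. The cells that met neither rule had *Apod* at 254 and 403 CPM and *Trf* at 463 and 708 CPM. The untreated ratios were smaller when depth was held in a narrow range. Among cells with 2000 to 8000 UMIs, 26 untreated members and 74 *Opalin* cells, they were 1.99 for *Apod* and 1.62 for *Trf*, whereas the 214 members and 513 *Opalin* cells of the other library gave 3.86 and 2.61. The cause was not tested.

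**Figure D2:**
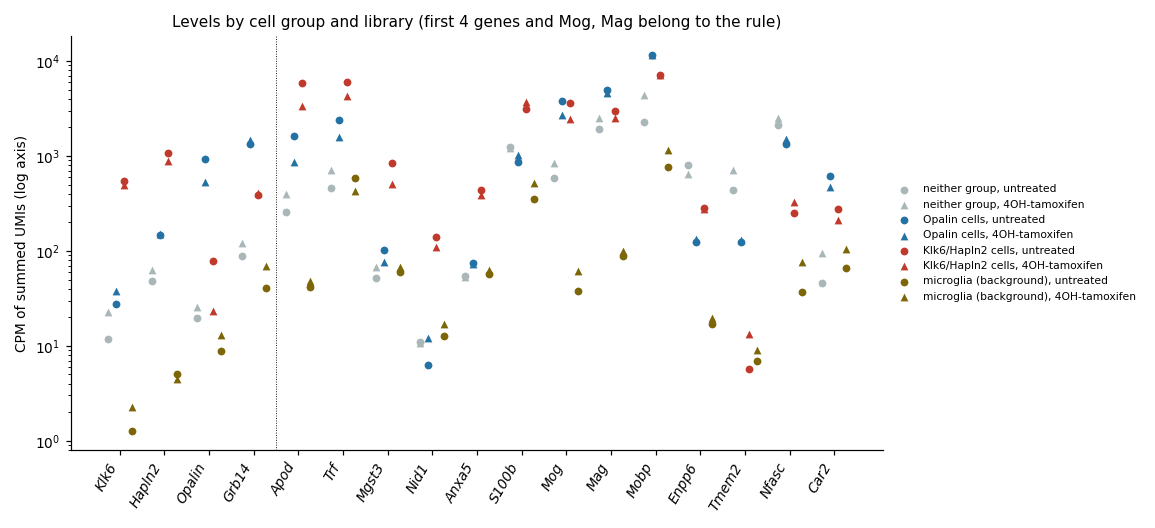
Levels of 17 genes (CPM, log axis) in *Klk6*/*Hapln2* cells, *Opalin* cells, cells that met neither rule and microglia, with circles for the untreated and triangles for the 4OH-tamoxifen library. *Apod*, *Trf*, *Mgst3*, *Nid1*, *Anxa5* and *S100b* are highest in *Klk6*/*Hapln2* cells of both libraries, and *Tmem2*, *Nfasc* and *Car2* are lower than in *Opalin* cells.

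To place these markers among all genes, 2818 genes with a mean of at least 50 CPM over both groups and libraries were compared, and a gene was counted as higher or lower if its ratio passed 2-fold the same way in both libraries. Of these genes 68 were higher in members (2.41%) and 100 were lower (3.55%), the rule genes included, and the median log2 ratio was 0.02. Counts of gene lists below are read against these shares. The lists were chosen with earlier results of these data known, so their counts describe these cells and give no independent support. Of 62 named genes that passed, 46 had a ratio that moved by more than 1.5 times in at least 1 library when a filter, limit, depth range or comparison group was changed, 44 in the untreated and 22 in the other library, and 22 no longer passed under at least 1 of these alternatives. Ranges below run over the alternatives.

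Among genes known from late oligodendrocytes more were higher than lower. The list was chosen with earlier results known, and it holds *Apod* and *Trf*, markers of the group. Of 35 on the list 22 were compared, 9 were higher, 1 was lower and 12 did not pass 2-fold, with a median log2 ratio of 0.75. The higher genes were *Apod*, *Trf*, *Mgst3*, *Pmp22*, *Anxa5*, *Sec11c*, *S100b*, *Sepp1* and *Anln*. *Mgst3*, a microsomal glutathione transferase, stood at 844 CPM (784 to 907) in untreated members and 502 CPM with 4OH-tamoxifen against 102 and 76.4 CPM, ratios of 8.25 (7.21 to 9.46) and 6.57 (5.89 to 7.34). *S100b*, a calcium-binding protein that astrocytes also make, was at 3164 and 3686 CPM against 875 and 1031 CPM, ratios of 3.62 and 3.58. *Sepp1*, the selenium carrier selenoprotein P, was at 1256 and 928 CPM against 417 and 308 CPM. *Anln*, which encodes anillin, a scaffold of septin filaments, was at 272 and 255 CPM against 113 and 94.8 CPM, and its untreated ratio was 1.87 in cells with no UMI of *C1qa*, *C1qb*, *Cldn5* or *Flt1*.

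The gene on the list that was lower, *Car2*, encodes carbonic anhydrase 2. It stood at 275 CPM (242 to 312) in untreated members and 214 CPM (194 to 236) with 4OH-tamoxifen against 610 and 471 CPM, 2.22-fold and 2.2-fold lower. Against cells that met neither rule, at 45.6 and 96.0 CPM, its level in members was higher. The untreated *Car2* ratio was 0.650 in cells with 2000 to 8000 UMIs. *Fth1*, the ferritin heavy chain, did not reach 2-fold, with ratios of 1.32 and 1.70. *Gsn*, which encodes the actin-severing protein gelsolin, had ratios of 1.80 and 1.70.

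Genes of newly formed and early myelin-forming cells were more often lower. Of 29 list genes that were measured, 21 were compared, 11 were lower and 1 was higher, with a median log2 ratio of -1.28. *Tmem2*, a cell surface hyaluronidase, stood at 5.73 and 13.3 CPM in members against 123 and 131 CPM in *Opalin* cells, 21.5-fold (9.11 to 66.5) and 9.89-fold (6.70 to 15.2) lower. The untreated *Tmem2* ratio, 0.0466, ranged from 0.0257 against all other *Mog* and *Mag* cells to 0.412 after thinning each cell to 2000 UMIs, and the other from 0.0424 to 0.165. *Gpr17*, a receptor of committed precursors, was at 20.6 and 65.4 CPM against 157 and 222 CPM. *Rras2*, a small GTPase, was at 25.2 and 34.2 CPM against 211 and 181 CPM. *Tmem141* was at 75.7 and 72.5 CPM against 949 and 1150 CPM, 12.5-fold (9.82 to 16.3) and 15.9-fold (13.4 to 18.9) lower. *Tspan2*, a tetraspanin of early myelin, was at 938 and 771 CPM against 2265 and 1895 CPM, and at 557 and 852 CPM in cells that met neither rule. Against all other *Mog* and *Mag* cells the *Tspan2* ratios were 0.542 and 0.491, so its call was lost there. The others were *Tmem163*, *Cnksr3*, *Nfasc*, *Ctps*, *Birc2* and *Rap2a*. *Birc2* did not stay past 2-fold in untreated cells with 2000 to 8000 UMIs, at a ratio of 0.586.

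*Enpp6*, a choline phosphodiesterase known as a marker of newly formed oligodendrocytes, was the exception. It stood at 287 CPM (252 to 325) in untreated members and 274 CPM (252 to 298) with 4OH-tamoxifen, against 124 and 133 CPM in *Opalin* cells, ratios of 2.32 (1.97 to 2.73) and 2.06 (1.84 to 2.30). The cells that met neither rule had more of it than either group, at 810 and 641 CPM, so that against all other *Mog* and *Mag* cells the ratios were 0.847 and 0.943. In cells with 2000 to 8000 UMIs the *Enpp6* ratios to *Opalin* cells were 2.52 and 1.96. At least 1 *Enpp6* UMI was found in 87.1% of untreated and 76.3% of 4OH-tamoxifen members, against 5.11% and 3.19% of microglia.

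Genes of the myelin sheath were divided. All 30 on the list were compared, 4 were higher and 5 lower, with a median log2 ratio of -0.12. *Mbp*, the myelin basic protein, had ratios of 0.850 and 0.863, and *Mobp* ratios of 0.619 and 0.613. The higher genes were *Gpm6b*, a membrane glycoprotein, with ratios of 2.92 and 2.64 (1.89 in untreated cells with 2000 to 8000 UMIs), *Sept8*, a septin, with 3.23 and 3.08, *Cd82*, a tetraspanin, with 2.17 and 2.28, and *Gjb1*, which encodes connexin 32, with 2.05 and 2.14. The calls of *Cd82* and *Gjb1* lay close to 2-fold and were lost under several alternatives. The lower genes were *Opalin*, which the rule used, *Cd9*, *Tspan2*, *Tppp* and *Bin1*. *Cd9*, another tetraspanin, was at 75.7 and 55.2 CPM in members, 356 and 165 CPM in *Opalin* cells and 1690 and 659 CPM in cells that met neither rule. *Tppp*, a microtubule-binding protein, was at 137 and 136 CPM against 458 and 480 CPM.

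Genes of axon contact and nodal matrix had 14 of 28 members of the list compared, of which 1 was higher and 3 were lower. The higher one was *Hapln2* itself. *Nfasc* encodes neurofascin, whose glial form anchors the sheath beside the node. It stood at 250 CPM (218 to 286) and 324 CPM in members against 1346 and 1529 CPM in *Opalin* cells, 5.38-fold (4.70 to 6.20) and 4.72-fold (4.35 to 5.12) lower. *Cntn1*, the axonal and glial adhesion protein contactin 1, was at 110 and 134 CPM against 349 and 348 CPM. *Ank3*, the scaffold ankyrin G, was at 203 and 237 CPM against 840 and 833 CPM. The axon growth inhibitor *Rtn4* did not reach 2-fold, with ratios of 1.12 and 1.11.

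Few lipid genes passed 2-fold. Of 24 genes of cholesterol synthesis 22 were compared and 0 passed 2-fold either way, with a median log2 ratio of 0.17. *Hmgcs1*, which makes the precursor of mevalonate, stood at 2427 and 1896 CPM in members against 1802 and 1857 CPM. Of 28 genes of fatty acid and sphingolipid synthesis 19 were compared, 2 were higher and 0 lower. *Elovl5*, which lengthens polyunsaturated fatty acids, had ratios of 2.28 (1.94 to 2.68) and 2.34 (2.08 to 2.63), and 1.68 in untreated cells with 2000 to 8000 UMIs. *Gpd1*, which makes the glycerol phosphate of lipids, stood at 294 and 349 CPM against 91.3 and 105 CPM. *Ugt8a*, which makes the galactosylceramide of myelin, had ratios of 1.26 and 1.47.

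Transcription factors of the lineage were lower where they passed 2-fold. Of 32 on the list 17 were compared, 3 were lower and 0 higher, and 14 had ratios under 1 in both libraries, which held for 1047 of all 2818 genes, with a median log2 ratio of -0.49. *Olig1* stood at 565 CPM (517 to 618) and 507 CPM in members against 1287 and 1231 CPM, 2.28-fold and 2.43-fold lower, and its untreated ratio was 0.524 in cells with 2000 to 8000 UMIs. *Olig2* was at 65.4 and 85.3 CPM against 164 and 206 CPM, and its 4OH-tamoxifen ratio was 0.635 after thinning to 2000 UMIs. *Klf13* was at 183 and 166 CPM against 581 and 574 CPM. *Myrf*, the regulator of myelin genes, had ratios of 0.704 and 0.800, and *Sox10* ratios of 0.636 and 0.798. No gene of the hindbrain *Hox* list reached the level needed for comparison, and the 18 genes together came to 9.18 and 12.3 CPM in members.

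Of 37 channels, connexins and transporters 22 were compared, with 2 higher and 2 lower. *Kcna1*, a voltage-gated potassium channel subunit, was at 21.8 and 24.5 CPM in members against 190 and 182 CPM, 8.71-fold (5.53 to 14.6) and 7.42-fold (5.56 to 10.1) lower. The untreated *Kcna1* ratio, 0.115, ranged from 0.0593 after thinning to 0.424 in cells with 2000 to 8000 UMIs. *Hcn2*, a cation channel opened by hyperpolarization, stood at 231 and 226 CPM against 91.9 and 103 CPM, ratios of 2.51 and 2.19, which were 1.64 and 1.86 in cells with 2000 to 8000 UMIs. *Gjb1* and *Car2* are described above.

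Of 28 proteases and inhibitors 11 were compared, with 2 higher and 3 lower. Besides *Klk6*, the higher gene was *Spock3*, a secreted proteoglycan, at 290 and 181 CPM against 97.9 and 47.2 CPM, but its untreated ratio was 1.26 in cells with 2000 to 8000 UMIs. The lower genes were *Ctsl*, a lysosomal cysteine protease, at 155 and 102 CPM against 416 and 327 CPM, *Adamts4*, a metalloprotease that cuts matrix proteoglycans, and *Timp2*, an inhibitor of metalloproteases. *Timp2* was barely past the limit, 2.02-fold and 2.19-fold lower, and several alternatives ended its call. The *Adamts4* ratios were 0.531 and 0.530 in cells with 2000 to 8000 UMIs. *Klk8*, a relative of *Klk6*, had no UMI in members, where 3 UMIs would give 3.44 and 1.53 CPM.

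Of 31 genes of cytoskeleton and axonal support 28 were compared, with 3 higher and 3 lower. *Tmsb10*, a thymosin that binds actin monomers, stood at 1083 and 1614 CPM in members against 290 and 459 CPM, ratios of 3.73 and 3.52. *Tubb2b*, a beta tubulin, had ratios of 3.37 and 3.18 against *Opalin* cells, but the cells that met neither rule had more of it, at 1135 and 648 CPM, and against all other *Mog* and *Mag* cells the *Tubb2b* ratios were 0.750 and 1.33. *Marcks*, an actin-binding substrate of protein kinase C, was at 75.7 and 174 CPM in members, 506 and 688 CPM in *Opalin* cells and 2771 and 3628 CPM in cells that met neither rule. Its untreated ratio to *Opalin* cells was 0.548 in cells with 2000 to 8000 UMIs. *Arpc1b*, a subunit of the actin nucleator Arp2/3, was at 397 and 361 CPM against 1144 and 946 CPM.

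The iron and copper list had 7 of 18 genes compared, and only *Trf* passed 2-fold. Of 22 immediate early and stress genes 5 were compared, with 0 higher and 1 lower. That gene was *Ddit4*, an inhibitor of mTORC1 signalling, at 40.1 and 39.3 CPM in members against 203 and 195 CPM. None of 17 antigen presentation and interferon genes reached the level for comparison.

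**Figure D3:**
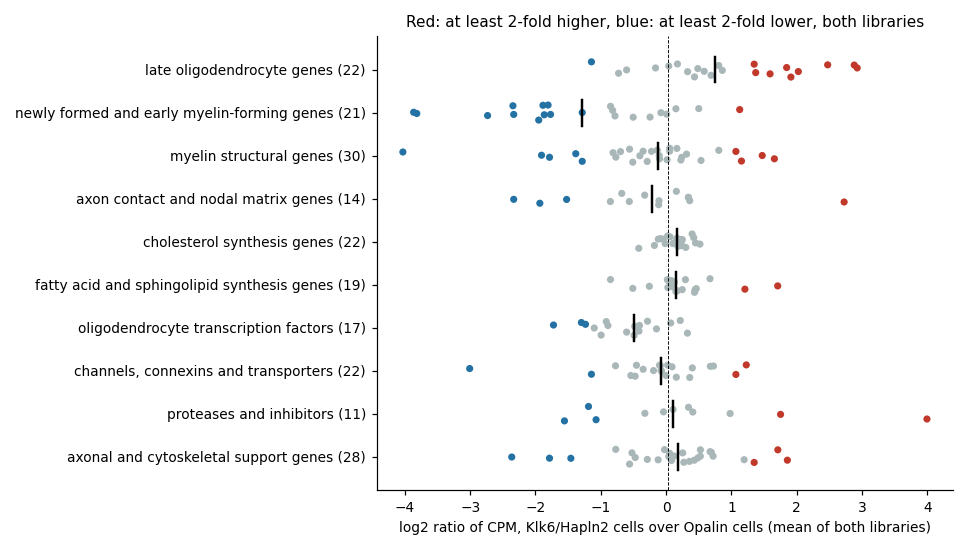
Log2 ratio of CPM in *Klk6*/*Hapln2* cells over *Opalin* cells (mean of both libraries) for the compared genes of 10 lists, 1 point per gene, with the number compared in brackets, the list's median as a bar and the median of all compared genes (0.02) as a dashed line. The median of late oligodendrocyte genes lies at 0.75 and that of newly formed and early genes at -1.28. The lists were chosen with earlier results of these data known.

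Outside the rule genes, *Nid1* had the ratio that was highest in the lesser of both libraries. It encodes nidogen 1, a linker of basement membranes, and stood at 139 CPM (115 to 166) and 109 CPM in members against 6.35 and 12.2 CPM in *Opalin* cells, ratios of 21.9 (13.4 to 37.6) and 8.93 (6.86 to 11.7). Over the alternatives the *Nid1* ratios ranged from 9.10 to 28.4 and from 5.36 to 9.85, each lowest with 10 CPM added to both levels. *Nid1* was found in 56.5% and 41.3% of members and in 2.96% and 3.49% of microglia, whose median depth was 4084 and 2441 UMIs. Endothelial cells had more of it, at 304 and 273 CPM, while the 10 endothelial markers summed to 83.7 and 67.9 CPM in members. The rule had left out cells with more than 2 UMIs of *C1qa*, *C1qb*, *Cldn5* and *Flt1*, so that sum was partly set by it. *Pmp22*, better known as a protein of peripheral myelin, was at 134 and 101 CPM against 12.4 and 18.9 CPM, ratios of 10.9 (7.44 to 16.2) and 5.32 (4.22 to 6.73). *Pmp22* was also found in microglia, at 103 and 77.2 CPM. Of 10 Schwann cell markers, 7 had 0 UMIs in untreated and 5 in 4OH-tamoxifen members, among them *Prx*, *Cldn19*, *Pmp2* and *Egr2* in both libraries, while *Sox10*, which oligodendrocytes share, made up most of their sum.

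Further genes of the 12 highest were *Plin3*, which coats lipid droplets, with ratios of 5.33 and 5.97, *Anxa5*, a calcium-dependent phospholipid binder, with 5.82 and 5.30, *Emilin2*, a matrix glycoprotein, with 5.88 and 4.13, and *Sec11c*, a signal peptidase subunit, with 3.95 and 4.20. *Dpysl5*, a collapsin response mediator, had 4.86 and 4.01, *Usp31*, a ubiquitin protease, 3.56 and 3.79, and *Slc25a27*, a mitochondrial carrier, 3.57 and 3.56. In untreated cells with 2000 to 8000 UMIs the ratios of *Dpysl5* and *Slc25a27* were 1.29 and 1.61.

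Outside the rule genes, and ordered by the smaller fold difference of both libraries, the 12 lowest genes were led by *Slc9a3r2*. This scaffold of membrane transporters stood at 8.03 and 7.66 CPM in members against 128.7 and 117.2 CPM, 16.03-fold (7.71 to 40.1) and 15.3-fold (9.21 to 27.5) lower. Its untreated ratio, 0.0624, ranged from 0 after thinning to 0.170 in cells with 2000 to 8000 UMIs, and the other *Slc9a3r2* ratio, 0.0654, from 0.0403 to 0.139. *Onecut2*, a transcription factor, was at 20.6 and 19.9 CPM against 209 and 241 CPM. *Mcam*, a cell adhesion molecule, was at 20.6 and 15.3 CPM against 175 and 153 CPM. *Tnni1*, a troponin better known from slow muscle, was at 28.7 and 18.4 CPM against 190 and 268 CPM. *Pcdh17*, a protocadherin, was at 53.9 and 68.5 CPM against 328 and 470 CPM. Further ones were *Tmem141*, *Tmem2*, *Ninj1*, *Kcna1*, *1810041L15Rik* and *Gm13889*. *Slc9a3r2*, *Onecut2*, *Mcam* and *Tnni1* were also under the *Opalin* level in cells that met neither rule, whereas *Tmem2* and *Pcdh17* were highest in those cells of both libraries.

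**Figure D4:**
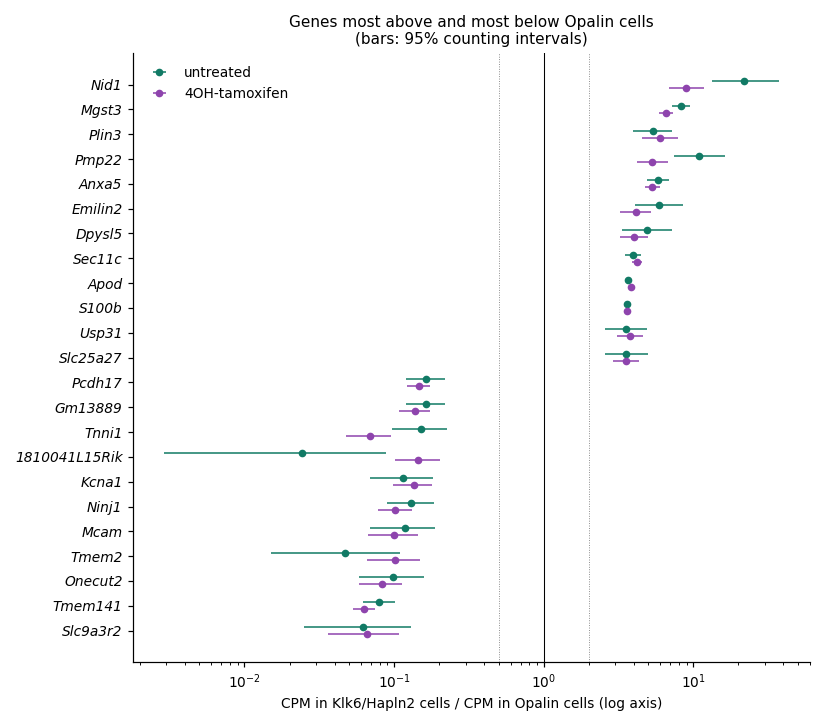
Ratio of CPM in *Klk6*/*Hapln2* cells to CPM in *Opalin* cells (log axis) for the 12 genes most above and 11 of the 12 most below, rule genes left out, with 95% counting intervals. Genes are ordered by whichever ratio of the 2 libraries lies nearer 1. *Nid1* reaches 21.9 in untreated cells and 8.93 with 4OH-tamoxifen, and every gene shown lies on the same side of 1 in both. Over the alternatives the *Nid1* ratios ranged from 9.10 to 28.4 and from 5.36 to 9.85.

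Further genes of these lists moved with the alternatives as well. Among the lower ones, the untreated ratio of *1810041L15Rik*, 0.0241, ranged from 0.0142 to 0.259, that of *Rras2* from 0.0604 to 0.292, that of *Onecut2* from 0.0893 to 0.218, that of *Pcdh17* from 0.138 to 0.421 and that of *Ninj1* from 0.108 to 0.302. The ratio of *Gpr17* ranged from 0.0554 to 0.184 in the untreated library and from 0.129 to 0.325 in the other. Among the higher ones, the untreated ratio of *Pmp22* ranged from 6.45 to 12.6, that of *Plin3* from 3.31 to 11.4, that of *Anxa5* from 3.11 to 12.8, that of *Emilin2* from 4.03 to 9.33 and that of *Usp31* from 2.86 to 7.88. Each of these genes stayed past 2-fold in both libraries under every alternative that gave both ratios.

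Members also varied among themselves. They were divided into 3 parts by *Klk6* and *Hapln2* UMIs per 10000 UMIs, at 10.98 and 16.91 over all members, with 24, 26 and 35 untreated and 105, 102 and 93 4OH-tamoxifen cells from the lowest to the highest part. *Apod* went from 3825 CPM (3605 to 4055) over 5413 CPM to 8728 CPM (8388 to 9079) in the untreated library and from 2435 CPM (2328 to 2547) over 3312 CPM to 4943 CPM (4748 to 5145) with 4OH-tamoxifen. *Trf* went from 4202 over 6189 to 7847 CPM and from 3539 over 4247 to 5457 CPM. *Mgst3* went from 465 over 735 to 1351 CPM and from 392.4 over 495.3 to 690.6 CPM, and *Sec11c* from 496 over 684 to 899 CPM and from 596 over 696 to 1000 CPM. The parts are ordered by the counts that chose the cells, so these values only describe the members. *S100b* also rose from part to part in both libraries. *Nid1* went from 88.2 over 126 to 204.5 CPM and from 96.2 over 116 to 119.6 CPM, where the 4OH-tamoxifen intervals of all parts overlapped. *Emilin2* was at 88.2, 88.5 and 113 CPM and at 58.2, 90.9 and 115 CPM, where the untreated intervals of all parts overlapped. The following genes did not rise from part to part in both libraries. *Pmp22* was at 98.4, 119.1 and 186.9 CPM and at 69.6, 126 and 115.4 CPM from the lowest to the highest part. *Anln* was at 299, 259 and 257 CPM and at 279, 261 and 208 CPM, and *Slc25a27* at 91.6, 95.3 and 88.2 CPM and at 99.99, 113 and 107 CPM. *Anxa5* was at 428, 361 and 522 CPM and at 348, 416 and 402 CPM, *Dpysl5* at 84.9, 85.1 and 63.5 CPM and at 87.3, 103 and 105 CPM, *Plin3* at 119, 91.9 and 187 CPM and at 83.5, 71.8 and 86.6 CPM, and *Usp31* at 81.5, 105.5 and 95.2 CPM and at 104, 116 and 107 CPM.

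*Fth1* ran the other way, from 23316 over 19618 to 14642 CPM in the untreated library and from 26931 over 26222 to 17813 CPM with 4OH-tamoxifen. *Bcas1*, a gene of early myelin-forming cells, was at 295, 232 and 254 CPM and at 375, 296 and 285 CPM. *Opalin* was at 98.4, 81.7 and 56.4 CPM and at 24.1, 23.5 and 22.7 CPM. Depth moved with the parts, with median UMIs of 12790, 10624 and 9144 in untreated and 7239, 6444 and 4871 in 4OH-tamoxifen members, and its part in these values was not tested.

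Across single members, UMIs of *Apod* and *Trf* per 10000 UMIs had a Pearson correlation of 0.79 over 85 untreated and 0.64 over 300 4OH-tamoxifen cells (Spearman 0.81 and 0.68). *Klk6* and *Apod* had 0.55 and 0.38 (Spearman 0.53 and 0.36), and *Hapln2* and *Apod* 0.09 and 0.34 (Spearman 0.35 and 0.34). *Klk6* and *Hapln2*, whose sum the rule bounds, had 0.13 and 0.22 (Spearman 0.25 and 0.09). These cells share a library and the total they are divided by, so the values only describe them. The 35 untreated and 33 4OH-tamoxifen members with any *Opalin* UMI still had *Apod* at 5494 and 3453 CPM and *Klk6* at 393 and 464 CPM. Those 10 and 51 without any UMI of *Opalin*, *Grb14* or *Tmod1* had *Apod* at 6425 and 4522 CPM, and were shallower, with median UMIs of 3580 and 4734.

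Between the libraries, the markers of the group differed less than 2-fold. *Klk6* in untreated over 4OH-tamoxifen members had a ratio of 1.11 (0.988 to 1.24), *Hapln2* of 1.22 (1.13 to 1.32), *Trf* of 1.42 (1.37 to 1.47), *Mog* of 1.46 (1.39 to 1.52) and *Apod* of 1.77 (1.71 to 1.84). *Opalin* cells gave 1.85 (1.78 to 1.92) for *Apod*, 1.51 for *Trf* and 1.42 for *Mog*, so these genes differed by similar ratios in both groups of cells.

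The named gene with the largest ratio between the libraries was *Mgp*, the matrix Gla protein, a secreted inhibitor of calcification (chr6:136872435-136875823, GRCm38). It stood at 236 CPM (205 to 271) in untreated members and at 2.55 CPM in 4OH-tamoxifen members, where 5 UMIs were counted, a ratio of 92.5 (39.0 to 288). The *Mgp* ratio in members ranged from 19.6 with 10 CPM added to both levels to 116, and was 37.0 after thinning. *Opalin* cells gave 583 and 2.66 CPM, a ratio of 219 (137 to 377). In the untreated library 44.7% of members and 39.1% of *Opalin* cells had *Mgp*, but 8.56% of cells that met neither rule and 2.96% of microglia. With 4OH-tamoxifen 1.67% of members had it. Endothelial cells had it in both libraries, in 25.6% of untreated cells (171 CPM) and 12.4% of 4OH-tamoxifen cells (59.5 CPM). *Smco3*, a membrane protein gene on the same chromosome (chr6:136829927-136835452), was at 60.8 against 9.71 CPM in members and 63.2 against 11.3 CPM in *Opalin* cells, and its ratio of 6.26 in members was 3.59 with 10 CPM added. Both had been seen in an earlier comparison of these libraries.

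*Mgp* is also a gene of pericytes and fibroblasts. In untreated members, 5 of 12 markers of these cells were at 0, among them *Dcn*, *Lum* and *Col1a1*. The 12 together came to 270 CPM, of which *Mgp* made up 236 CPM. In 4OH-tamoxifen members only *Lum* was at 0 and the sum was 42.9 CPM. Untreated members held 871966 UMIs in all and 4OH-tamoxifen members 1957578, so the numbers of genes at 0 cannot be compared between the libraries.

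*Opalin*, a gene of the rule, was at 79.1 CPM in untreated members and 23.5 CPM with 4OH-tamoxifen, a ratio of 3.37 (2.29 to 5.00), and 35 of 85 against 33 of 300 members had at least 1 UMI of it. In *Opalin* cells the ratio was 1.75 (1.66 to 1.84). In members it ranged from 1.00 after thinning to 5.21 in cells with 2000 to 8000 UMIs. The other named genes described here differed about 2-fold. *Cd82* was at 154 CPM in untreated members and 79.2 CPM with 4OH-tamoxifen, a ratio of 1.94, and *Opalin* cells gave 2.04. *Fdps*, an enzyme of isoprenoid synthesis, was at 625 and 317 CPM, a ratio of 1.97 in members and 1.43 in *Opalin* cells. *Ggh*, *Arpc4*, *Psma6* and *Tmem205* had ratios of 1.94 to 2.32 in members and 1.16 to 1.42 in *Opalin* cells, but *Psma6* was at 0.667 in members after thinning to 2000 UMIs and *Arpc4* at 1.20 in cells with 2000 to 8000 UMIs. Higher with 4OH-tamoxifen were the metallothionein genes *Mt1*, at 854 against 430 CPM, and *Mt2*, at 257 against 123 CPM, 1.985-fold and 2.098-fold in members and 1.19-fold and 1.38-fold in *Opalin* cells. Both were also higher with 4OH-tamoxifen in the other cell groups. *Mt1* was at 2426 against 1203 CPM in microglia, 1443 against 636 CPM in endothelial cells and 1747 against 909 CPM in cells that met neither rule. *Mt2* was at 630 against 274.5 CPM, 423 against 191 CPM and 447 against 247 CPM in the same groups. After thinning, the untreated over 4OH-tamoxifen ratio of *Mt2* in members was 0.781 in place of 0.477, and that of *Me1* 0.333 in place of 0.507. *Me1*, the cytosolic malic enzyme that makes NADPH, was 1.97-fold higher in members and 2.73-fold in *Opalin* cells. *Marcks*, *Adi1*, *Ankrd11*, *Gm10076* and *Rps12* were 1.84-fold to 2.30-fold higher in members and 1.15-fold to 1.71-fold in *Opalin* cells, but the untreated over 4OH-tamoxifen ratio of *Ankrd11* was 1.08 in members after thinning, and that of *Marcks* 1.08 in cells with 2000 to 8000 UMIs.

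*Meg3* and *Snhg11*, noncoding RNAs abundant in neurons, were at 467 and 156 CPM in untreated against 216 and 62.8 CPM in 4OH-tamoxifen members. These levels rested on few cells. A single untreated member held 73.0% of the *Meg3* UMIs and a single one 48.5% of the *Snhg11* UMIs. When cells with over 50 UMIs of 10 neuron markers per 10000 UMIs were left out, 2 untreated and 3 4OH-tamoxifen members, the *Meg3* ratio between the libraries was 0.352.

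**Figure D5:**
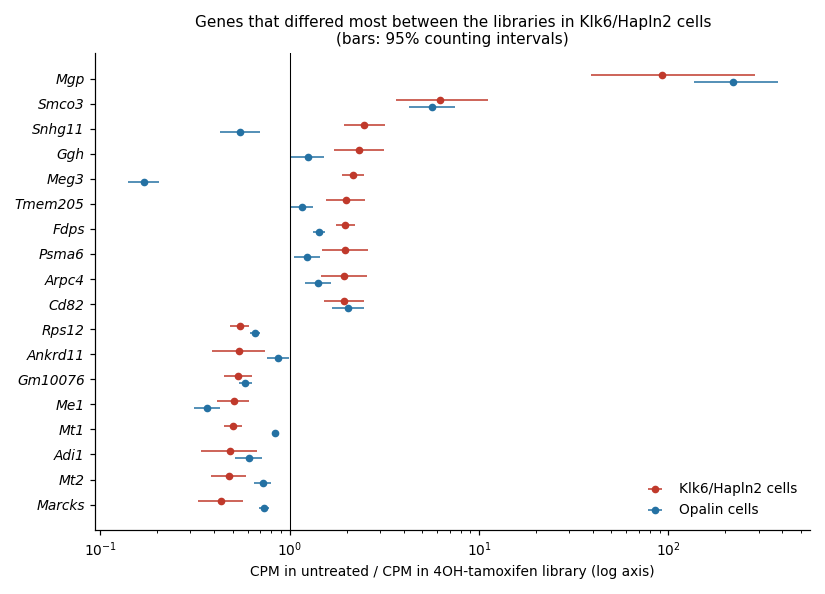
Ratio of CPM in the untreated to CPM in the 4OH-tamoxifen library (log axis) for 18 genes, in *Klk6*/*Hapln2* cells and in *Opalin* cells, with 95% counting intervals. *Mgp* and *Smco3* lie far to the right in both groups of cells, at 92.5 and 6.26 in members, and *Meg3* and *Snhg11* lie on opposite sides of 1 in the 2 groups.

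Markers of microglia and endothelial cells were low in members. The 10 microglia markers summed to 88.3 CPM in untreated members and 92.5 CPM with 4OH-tamoxifen, against 25393 and 18811 CPM in microglia, and *Tmem119* was at 0 in untreated members. Of the endothelial markers summed above, *Abcb1a* was at 0 in both libraries. Precursor markers summed to 122 and 300 CPM in members and 274 and 420 CPM in *Opalin* cells. Astrocyte markers summed to 2100 and 2182 CPM in members, 1490 and 1758 CPM in *Opalin* cells and 1771 and 2915 CPM in microglia, with none of the 10 at 0. Neuron markers summed to 930 and 826 CPM in members, 308 and 785 CPM in *Opalin* cells and 738 and 1588 CPM in microglia, and of their 5 compared genes none was 2-fold higher in both libraries. Schwann cell markers, *Sox10* among them, summed to 171 and 223 CPM in members and 269 and 282 CPM in *Opalin* cells.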

How the data were processed

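Single-cell RNA-seq (10x Chromium, v2 chemistry) was analysed for 2 libraries. Per the labels, the authors converted reads with bcl2fastq 2.18.0.12 and counted them with Cell Ranger 2.2.0 on mm10 (GRCm38). The deposited values are raw counts of UMIs per gene and barcode, for 3767 untreated barcodes (18496942 UMIs) and 10241 4OH-tamoxifen barcodes (34704167 UMIs). The deposited matrices carry no doublet calls. Doublets were treated only by the exclusions of the rule; Scrublet, tried as an alternative, marked 6 and 544 barcodes.

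Levels carry exact Poisson intervals, ratios exact conditional intervals and shares Clopper-Pearson intervals (95%, counting error only). Microglia, with at least 5 *C1qa* and *C1qb* UMIs, gave the background. The 22 gene lists hold 420 names, of which 418 matched; 9630013A20Rik and Caspr did not. Members, lists and named genes were chosen with earlier results of these data known. Named genes are the rule and marker genes, list genes past 2-fold (up to 5 for each direction) and the 3 of each list highest in members, the 12 most extreme in each direction, the 8 in each direction that differed most between libraries, and *Mgp* and *Smco3*. Other genes were chosen after their values were seen. Antisense and overlapping genes were not checked, and a few genes covered by the rule are not reported here.

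The intervals and calls were tested on simulated data of 2818 genes with counting noise alone, 200 of them changed 4-fold, which does not test calls near 2-fold: intervals held the true ratio for 95.4% and 95.0% of genes, 100% of changes were called and 0 unchanged genes were. Python 3.11.15, NumPy 2.4.6, SciPy 1.17.1, pandas 2.3.3, scanpy 1.11.5 and Matplotlib 3.10.9 were used. Positions come from GENCODE for GRCm38 by Ensembl identifier.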

Additional observations from a re-analysis of the deposited data

Results flagged for a closer look

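The ratio of *Tmem205*, a transmembrane protein gene, in *Klk6*/*Hapln2* cells over *Opalin* cells lay on opposite sides of 1 in the libraries. It was 1.38 (1.12 to 1.68) in the untreated library, from 159 and 116 CPM, and 0.811 (0.677 to 0.967) in the 4OH-tamoxifen library, from 80.7 and 99.5 CPM. The 4OH-tamoxifen ratio of *Tmem205* was above 1 under some settings, at 1.22 after thinning to 2000 UMIs and 1.06 in cells with 2000 to 8000 UMIs. The difference was not tested, since each condition has 1 library.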

How the results depend on the processing

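All 15 alternatives set at the outset were run, and a limit on neuronal UMIs was added after the data were seen. No paired analysis was possible because each condition has 1 library. The number of untreated members was 40 with at most 10% mitochondrial UMIs, 56 when cells were thinned to 2000 UMIs before the rule and 49 with no UMI of *C1qa*, *C1qb*, *Cldn5* or *Flt1*, and 168 4OH-tamoxifen members were left after thinning. Genes of at least 10 CPM gave 187 higher and 219 lower, and cells with 2000 to 8000 UMIs 42 higher. Against all other *Mog* and *Mag* cells, 17 early genes and 6 transcription factors were lower, and with at most 10% mitochondrial UMIs 5 factors. Higher myelin genes numbered 2 with at most 10% mitochondrial UMIs, 2 with no UMI of other types and 1 in cells with 2000 to 8000 UMIs. Of 62 named genes called, 61 gave both ratios in that range of depth and 18 lost the call there, which no other alternative did for more than 6; 26 untreated members lie in it. The cause was not tested.

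Some ratios turned. Against all other *Mog* and *Mag* cells *Enpp6* was at 0.847 and 0.943 and untreated *Tubb2b* at 0.750. In untreated cells *Meg3* was at 0 after thinning and 0.732 without cells rich in neuronal UMIs, and *Snhg11* at 0.875 after thinning. Untreated over 4OH-tamoxifen members, *Psma6* was at 0.667 and *Ankrd11* at 1.08 after thinning, *Marcks* was at 1.08 in cells with 2000 to 8000 UMIs, and *Meg3* at 0.756 with at least 6 *Klk6* and *Hapln2* UMIs, 0 after thinning, 0.817 with no UMI of other types and 0.352 without cells rich in neuronal UMIs.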
